A study of Homo sapiens with 10 samples.

Results

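The ion channels and calcium pumps described here were 68 genes of 8904 measured in T47D breast cancer cells. They were taken by symbol. A gene was a member if a probe set mapped to that symbol alone and the symbol began with KCN (potassium channel subunits), CACN (voltage-gated calcium channel subunits), CLCN or CLIC (chloride channels, exchangers and intracellular chloride channels), TRPC, TRPM or TRPV (transient receptor potential channels), ATP2A or ATP2B (calcium pumps), or SCN followed by a digit (sodium channels). The 68 members had 95 probe sets, and each was represented by the probe set with the highest mean over the 10 arrays. Of the members, 59 were protein coding and 9 were antisense or overlapping transcripts that carry a channel's symbol. KCNMA1, a potassium channel pore gene, was not analysed here, and 1 probe set that carries a member's symbol together with another was left out.

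Potassium channels set the resting potential and volume of a cell, chloride channels and exchangers balance charge in membranes and in acidic vesicles, and TRP and voltage-gated calcium channels admit calcium. The SERCA and PMCA pumps, encoded by ATP2A and ATP2B genes, return that calcium to the endoplasmic reticulum or expel it from the cell. In mammary epithelium these proteins serve secretion, calcium transport and proliferation.

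Total RNA of 5 groups was hybridised to Affymetrix U133 Plus 2 arrays, with 2 arrays per group and 10 in all. All cells derived from T47D-Y, a PR-negative clone of the luminal T47D line. WT PR-A cells and PR-A K388R cells were stable transfectants of T47D-Y that express the A isoform of the progesterone receptor, either intact or with the SUMO acceptor lysine replaced by arginine, and each line was given vehicle (ethanol) or 10 nM of the synthetic progestin R5020 for 24 h. T47D-Y cells with vehicle formed the fifth group; T47D-Y cells with R5020 were not analysed here. Each genotype was 1 line, so that an effect of the receptor cannot be told apart from other differences between the transfected lines. In the labels the medium was DMEM and the RNA kit PicoPure, whereas the study's methods name another medium and kit. Nothing in the labels says that the numbered replicates were separate cultures, so the p-values cover the spread between these arrays alone.

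The values were log2 signals per probe set. Array medians lay between 4.59 and 4.69. Replicates of a group correlated at r = 0.996 to 0.997 over probe sets, and arrays of different groups at 0.977 to 0.993. In every probe set the replicate differences, added over groups, came to 0, so the agreement of replicates may be overstated. Of 12 luminal markers 9 were measured, and 8 of them were in the upper quartile of all probe sets, with a list mean of 9.62 to 10.7 per array. None of 5 measured leukocyte markers and none of 6 neuron or muscle markers was in the upper quartile, against 1 of 7 fibroblast markers (COL1A1) and 2 of 6 basal markers (ACTA2 and CDH3). No probe set of PGR, which encodes the transfected receptor, was in the table, so the labels could not be checked on it. The members were mostly dim. The mean signal of 36 was under the median of all probe sets and that of 26 lay among the lowest 40%, where a signal may be background, while 6 were in the upper quartile (CLIC4, CLCN3, KCNK1, TRPV6, TRPM2 and KCNS3).

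A member was called where limma gave a Benjamini-Hochberg adjusted p under 0.05 over all 16376 probe sets together with at least a 1.5-fold difference (0.58 on the log2 scale). By this rule 9 members (13.2%) were called in at least 1 of 6 comparisons and 59 in none, beside 18% of all 8904 genes called in at least 1. The called genes were KCNG3, CLCN4, CLCN5, KCNH5, KCNS3, KCNK1, KCNN4, TRPV6 and CACNG6. All 9 were protein coding, and the mean of each over the 10 arrays lay above the lowest 40% of probe-set means. On single arrays KCNG3 went down to 3.49 (PR-A K388R with vehicle) and KCNN4 to 3.97 (WT PR-A with vehicle), under that cut.

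**Figure D1:**
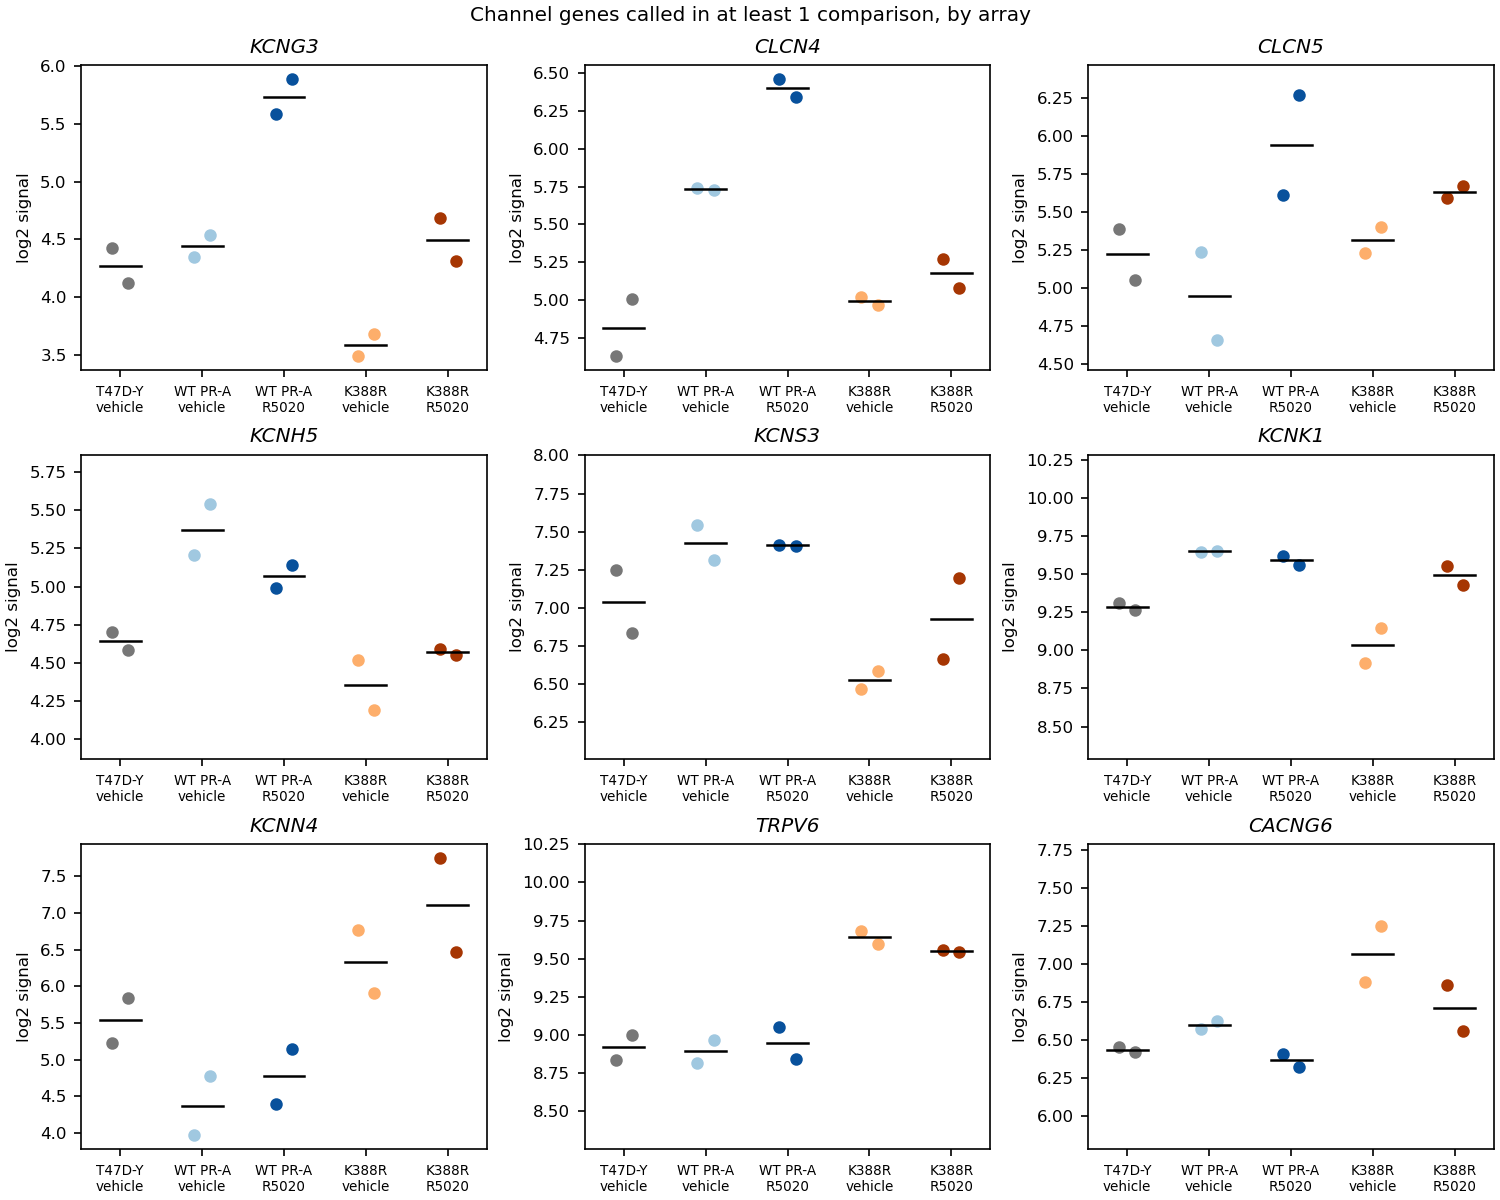
Log2 signal (y axis) of the 9 called genes on each of the 10 arrays. Points are arrays, bars are means of 2 arrays, and the groups on the x axis are T47D-Y with vehicle and both PR-A lines with vehicle or R5020; panels have different y ranges. Both WT PR-A arrays with R5020 stood highest for KCNG3 and CLCN4, and all 4 PR-A K388R arrays stood above the other 6 for TRPV6.

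In WT PR-A cells 3 channel genes were called higher with R5020, and no member was called lower. KCNG3 rose 2.45-fold, CLCN5 1.98-fold and CLCN4 1.59-fold. The 3 risers were 4.41% of the members, beside 4.4% of all 8904 genes called higher, so the share was that of the background. None of the 68 members was called lower, against 3.47% of all genes. At an unadjusted p under 0.05 there were 12 members in either direction, 17.6% beside 21.6% of all genes. The median log2 change of the members was -0.01 and that of all genes was -0.02.

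KCNG3 (chr2:42388352-42493982, RefSeq on GRCh38.p14, as for the positions that follow) encodes an electrically silent potassium channel subunit that modifies the channels it joins. Its log2 signal was 4.35 and 4.54 with vehicle and 5.58 and 5.89 with R5020. Both R5020 arrays stood above the other 8 arrays, whose highest value was 4.69. The log2 change was 1.29 ± 0.18 (SE, n = 2 against 2, limma adjusted p = 0.00144), and it was the only change of a member with R5020 that passed a 2-fold threshold.

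CLCN4 (chrX:10156975-10237660) and CLCN5 (chrX:49922596-50099230) encode chloride-proton exchangers of endosomes, and loss of CLCN5 causes the kidney tubule disorder Dent disease. CLCN4 measured 5.74 and 5.73 with vehicle and 6.46 and 6.35 with R5020, a log2 change of 0.67 ± 0.14 (SE, adjusted p = 0.0169). The groups did not overlap and both R5020 arrays were the highest of the 10, but without R5020 replicate 1 the change was 0.61 and its adjusted p 0.0551. CLCN5 measured 5.24 and 4.66 with vehicle and 5.61 and 6.27 with R5020, a change of 0.99 ± 0.24 (SE, adjusted p = 0.0320). These groups did not overlap either, though the replicates of each differed by more than 0.5. CLCN5 lost its call without R5020 replicate 2 (0.66, adjusted p = 0.128) and without vehicle replicate 2 (0.70, adjusted p = 0.157).

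The bases upstream of the genes that rose together are shown because R5020 acts through a receptor that binds DNA. Each run is the 250 bases before a RefSeq start site on GRCh38.p14, read 5′ to 3′ along the gene's strand, at chr2:42493983-42494232 (minus strand) for KCNG3, chrX:10156725-10156974 (plus strand) for CLCN4, and chrX:49922346-49922595 and chrX:50069251-50069500 (plus strand) for the first and the last of 3 start sites of CLCN5. They were searched on both strands for the palindromic hormone response element (GNACA and TGTNC, with any 3 bases between them) and for 1 arm of it, TGTTCT or AGAACA. Capitals mark a match to the arm.
KCNG3: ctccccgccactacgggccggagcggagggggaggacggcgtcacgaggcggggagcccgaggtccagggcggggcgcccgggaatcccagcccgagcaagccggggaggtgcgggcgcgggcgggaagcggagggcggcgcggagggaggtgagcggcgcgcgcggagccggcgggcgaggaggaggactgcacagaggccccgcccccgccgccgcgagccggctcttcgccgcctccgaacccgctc
CLCN4: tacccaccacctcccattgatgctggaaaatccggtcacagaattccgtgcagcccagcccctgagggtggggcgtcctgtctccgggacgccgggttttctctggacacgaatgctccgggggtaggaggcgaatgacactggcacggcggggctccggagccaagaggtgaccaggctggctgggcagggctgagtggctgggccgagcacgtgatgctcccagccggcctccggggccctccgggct
CLCN5 first start: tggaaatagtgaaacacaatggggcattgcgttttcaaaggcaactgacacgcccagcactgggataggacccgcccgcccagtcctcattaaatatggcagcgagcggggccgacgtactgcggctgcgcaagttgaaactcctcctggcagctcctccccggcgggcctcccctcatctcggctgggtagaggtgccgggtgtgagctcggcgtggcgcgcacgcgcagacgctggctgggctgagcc
CLCN5 last start: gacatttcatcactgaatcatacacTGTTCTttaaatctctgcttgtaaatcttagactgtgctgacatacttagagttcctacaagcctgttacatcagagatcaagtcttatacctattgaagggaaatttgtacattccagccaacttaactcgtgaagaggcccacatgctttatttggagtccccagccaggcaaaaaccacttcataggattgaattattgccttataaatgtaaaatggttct
The palindrome was in none of these windows. A single arm stood at position -225 from the last CLCN5 start, and KCNG3, CLCN4 and the other CLCN5 starts had none in this window. Over all 35116 RefSeq windows of this length 0.327% held the palindrome and 12.4% held an arm. Of the members, 56 had a window; among their 88 windows 10.2% held an arm and 1 held the palindrome, that of the uncalled KCNA5 at position -210. The windows differed in composition, with 80.8% G and C before KCNG3, 67.6% before CLCN4, and 64% before the first but 38% before the last CLCN5 start, against a median of 58% over all windows. A match is a run of letters and not a measured binding site.

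A pair of further members passed the adjusted p in WT PR-A cells without reaching 1.5-fold. CLIC4, which codes for an intracellular chloride channel protein that also acts in cell shape and differentiation, measured 10.38 and 10.37 with vehicle and 10.87 and 10.81 with R5020. All 4 values were above those of the other 6 arrays, and the log2 change was 0.46 ± 0.11 (SE, adjusted p = 0.0273). KCNAB2, a cytoplasmic beta subunit of voltage-gated potassium channels, measured 5.91 and 5.89 with vehicle and 5.40 and 5.35 with R5020, a change of -0.52 ± 0.12 (SE, adjusted p = 0.0248). Its WT PR-A vehicle arrays were the highest of the 10 and its R5020 arrays lay within the range of the others.

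In PR-A K388R cells KCNG3 was the 1 member called. It measured 3.49 and 3.68 with vehicle, in the dim range where a signal may be background, and 4.69 and 4.31 with R5020. The groups did not overlap, and the log2 change was 0.91 ± 0.18 (SE, 1.89-fold, adjusted p = 0.0384). This call did not hold without R5020 replicate 1 (0.73, adjusted p = 0.125), vehicle replicate 1 (0.82, adjusted p = 0.124) or vehicle replicate 2 (1.01, adjusted p = 0.0617). The single riser was 1.47% of the members, beside 1.25% of all genes; 0 members and 0.416% of all genes were called lower. At an unadjusted p under 0.05 there were 7 members, 10.3% beside 12.3% of all genes. The median change was 0.06 over members and 0.01 over all genes.

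The other genes that rose in WT PR-A cells gave smaller values here. CLCN4 measured 5.02 and 4.97 with vehicle and 5.27 and 5.08 with R5020, a log2 difference of 0.18 (95% interval -0.14 to 0.50, adjusted p = 0.750). CLCN5 measured 5.23 and 5.40 with vehicle and 5.59 and 5.67 with R5020, a difference of 0.32 (95% interval -0.22 to 0.86, adjusted p = 0.732). In both genes the R5020 arrays were above the vehicle arrays without passing the test. CACNA1D, which encodes the pore of an L-type calcium channel, had the lowest values of its 10 arrays on the 4 R5020 arrays. They were 5.17 and 4.91 in WT PR-A cells against 5.50 on both vehicle arrays, and 5.24 and 5.12 in PR-A K388R cells against 5.59 and 5.79. Neither difference was called, at -0.46 (adjusted p = 0.0755) and -0.51 (adjusted p = 0.134).

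**Figure D2:**
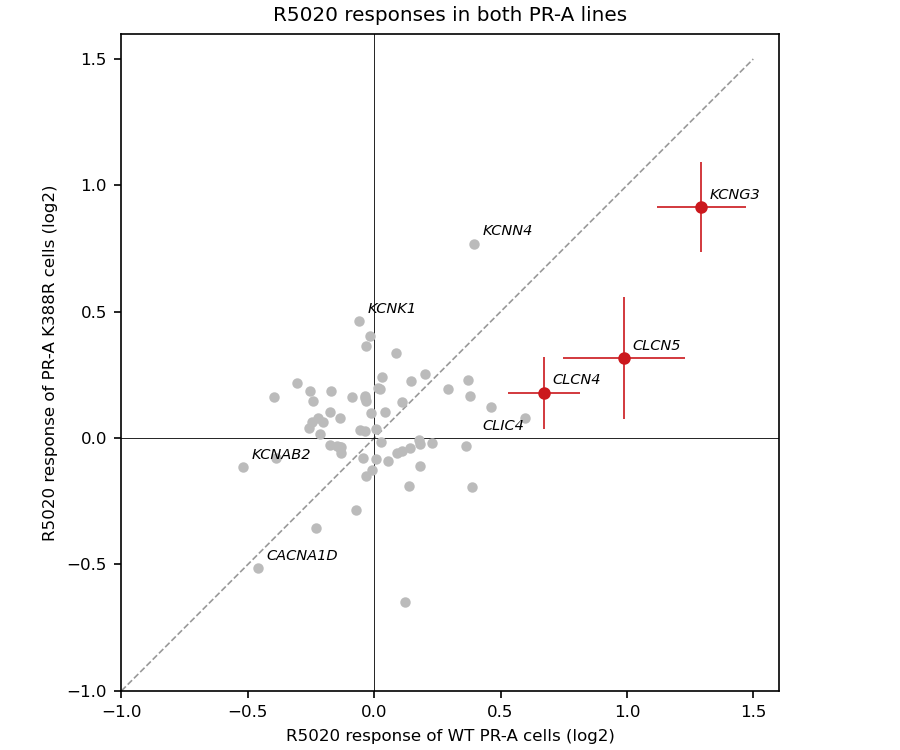
R5020 response of each of the 68 genes in WT PR-A cells (x axis, log2) and in PR-A K388R cells (y axis, log2). Red points are genes called in at least 1 line, with standard errors as bars, grey points are the rest, and the dashed line marks equal responses. KCNG3, CLCN4 and CLCN5 lie to the right of the dashed line, with WT PR-A responses of 1.29, 0.67 and 0.99 and PR-A K388R responses of 0.91, 0.18 and 0.32.

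Whether the lines differed in response was tested directly, by subtracting the WT PR-A response from the PR-A K388R response. No member was called in either direction by limma, against 0.719% of all genes higher and 1.16% lower. At an unadjusted p under 0.05 there were 7 members, 10.3% beside 13.7% of all genes. Without the replicate block the count of member calls was also 0, where 364 of all 8904 genes were called. Unmoderated analysis of variance contrasts called 0 of all 8904 genes, so their count of 0 members says nothing about the members. KCNG3 differed by -0.38 (95% interval -0.94 to 0.18, adjusted p = 0.648) and CLCN5 by -0.67 (95% interval -1.43 to 0.09, adjusted p = 0.500). For CLCN4 the interval, -0.95 to -0.04 around -0.49, left out 0 before adjustment but not after it (adjusted p = 0.366). KCNK1, a potassium channel of the tandem-pore class that supports resting potential, differed by 0.52 (95% interval 0.14 to 0.90, adjusted p = 0.215), from responses of -0.06 (WT PR-A) and 0.46 (PR-A K388R). These unadjusted intervals were wide, reaching a median of 0.43 to either side over the members. Differences above that size, such as those of CLCN5 and KCNK1, also went uncalled, so that sizeable differences could be missed with these arrays.

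Without hormone, WT PR-A cells differed from T47D-Y cells in 2 called members, both higher. CLCN4 measured 4.63 and 5.01 in T47D-Y and 5.74 and 5.73 in WT PR-A cells, a log2 difference of 0.92 ± 0.14 (SE, 1.89-fold, adjusted p = 0.00302). CLCN4 was thus both higher with WT PR-A and raised further by R5020; the 2 comparisons share the WT PR-A vehicle arrays. KCNH5 (chr14:62699464-63045458), which encodes a voltage-gated channel of the ether-a-go-go family, measured 4.70 and 4.58 in T47D-Y and 5.20 and 5.54 in WT PR-A cells. The difference was 0.73 ± 0.15 (SE, 1.66-fold, adjusted p = 0.0147), and it lost its call without T47D-Y replicate 2 (0.67, adjusted p = 0.0557) or WT PR-A vehicle replicate 2 (0.56, adjusted p = 0.0590). These 2 genes were 2.94% of the members, beside 4.48% of all genes called higher, and 0 members beside 4.03% of all genes were called lower. At an unadjusted p under 0.05 there were 14 members, 20.6% beside 23.1% of all genes. The median difference of the members was 0.06 and that of all genes 0.02.

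Below 1.5-fold, 3 members passed the adjusted p in this comparison. CLIC4 measured 9.91 and 9.85 in T47D-Y cells, under every array of the PR-A lines, and differed by 0.50 ± 0.11 (SE, adjusted p = 0.0181). KCNAB2 measured 5.30 and 5.34 in T47D-Y cells and was higher in WT PR-A cells by 0.58 ± 0.12 (SE, adjusted p = 0.0140). KCNQ1, a voltage-gated potassium channel of heart muscle and epithelia, was lower, with 6.39 and 6.58 in T47D-Y against 5.91 and 6.05 in WT PR-A cells (-0.51 ± 0.12 SE, adjusted p = 0.0280).

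PR-A K388R cells with vehicle differed from the same T47D-Y arrays in 2 called members, again both higher. TRPV6 (chr7:142871208-142885745), a calcium-selective channel through which epithelia take up calcium, measured 8.83 and 9.00 in T47D-Y and 9.68 and 9.60 in PR-A K388R cells. All 4 PR-A K388R arrays lay between 9.54 and 9.68 and the other 6 between 8.82 and 9.05, with or without R5020. The difference was 0.72 ± 0.13 (SE, 1.65-fold, adjusted p = 0.0125). CACNG6 (chr19:53991149-54012666), a gamma subunit of voltage-gated calcium channels, measured 6.45 and 6.42 in T47D-Y and 6.88 and 7.25 in PR-A K388R cells, a difference of 0.63 ± 0.15 (SE, 1.54-fold, adjusted p = 0.0478). It was close to both thresholds and lost its call when arrays were centred on their medians (0.56) and without PR-A K388R vehicle replicate 2 (0.45), T47D-Y replicate 1 (0.64) or T47D-Y replicate 2 (0.61).

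Those 2 genes were 2.94% of the members, beside 1.35% of all genes called higher, and 0 members were called lower, beside 2.48% of all genes. With arrays centred on their medians the genes called in this comparison shifted from 120 higher and 221 lower to 104 higher and 323 lower. At an unadjusted p under 0.05 there were 12 members, 17.6% beside 22.0% of all genes. KCNG3 was lower than in T47D-Y cells by 0.69 without being called (4.43 and 4.12 against 3.49 and 3.68, adjusted p = 0.0609). It was called lower with quantile normalization and with arrays centred on their medians. The fit with no replicate block called it too, as did some fits that left out 1 array, which also had no block. The median difference was 0.07 over members and 0.05 over all genes.

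The 250 bases before the RefSeq start of TRPV6, at chr7:142885746-142885995 (minus strand, GRCh38.p14), are shown because TRPV6 was called higher in the PR-A K388R line against both others.
TRPV6: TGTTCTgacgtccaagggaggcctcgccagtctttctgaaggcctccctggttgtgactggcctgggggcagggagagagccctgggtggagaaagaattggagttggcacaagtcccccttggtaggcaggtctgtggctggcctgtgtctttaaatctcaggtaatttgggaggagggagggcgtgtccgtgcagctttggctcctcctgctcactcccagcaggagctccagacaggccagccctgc
Capitals mark an arm of the hormone response element at position -250, the first base of the window; 12.4% of all windows held such an arm. Among the 12 windows of the 9 called genes only this one and that of the last CLCN5 start held it, and none held the palindrome.

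The largest number of member calls came from PR-A K388R against WT PR-A cells, both with vehicle, with 2 genes higher and 5 lower. The higher genes were 2.94% of the members, beside 3.49% of all genes, and the lower genes 7.35%, beside 5.63%, both near the background. At an unadjusted p under 0.05 there were 18 members, 26.5% beside 27.3% of all genes. The median difference was 0.05 over members and over all genes alike.

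The 5 lower genes were 4 potassium channel subunits and the exchanger CLCN4. KCNH5 was 5.20 and 5.54 in WT PR-A and 4.52 and 4.19 in PR-A K388R cells, a difference of -1.02 ± 0.15 (SE, 2.03-fold, adjusted p = 0.00258). The PR-A K388R values were also under those of T47D-Y cells, from which they differed by -0.29 (adjusted p = 0.336). KCNK1 (chr1:233614106-233672514) was 9.65 on both WT PR-A arrays and 8.92 and 9.15 in PR-A K388R cells, a difference of -0.62 ± 0.12 (SE, adjusted p = 0.00912). These were its lowest arrays, and with R5020 the PR-A K388R values were 9.56 and 9.43. The KCNK1 difference passed 1.5-fold by little and fell under it with quantile normalization (-0.56) and without PR-A K388R vehicle replicate 1 (-0.50).

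CLCN4 was lower by 0.74 ± 0.14 (SE, 1.67-fold, adjusted p = 0.00958), with 5.02 and 4.97 in PR-A K388R cells, near the T47D-Y values of 4.63 and 5.01. KCNG3 was lower by 0.86 ± 0.18 (SE, 1.81-fold, adjusted p = 0.0127), with its lowest arrays in PR-A K388R cells. Those arrays, at 3.49 and 3.68, were in the dim range where a signal may be background. Without WT PR-A vehicle replicate 2 the KCNG3 difference was -0.76, with an adjusted p of 0.0536. KCNS3 (chr2:17877847-17932958), like KCNG3 a silent subunit that modifies other potassium channels, measured 7.54 and 7.31 in WT PR-A and 6.47 and 6.58 in PR-A K388R cells. It differed by -0.90 ± 0.19 (SE, 1.87-fold, adjusted p = 0.0151), and by -0.84 without PR-A K388R vehicle replicate 1 (adjusted p = 0.0509) and -0.79 without WT PR-A vehicle replicate 1 (adjusted p = 0.0720). T47D-Y cells, with 7.25 and 6.83, lay between the PR-A lines.

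Of the 2 higher genes, TRPV6 differed by 0.75 ± 0.13 (SE, 1.68-fold, adjusted p = 0.00434), from 8.82 and 8.97 in WT PR-A cells. KCNN4 (chr19:43766533-43780973), the calcium-activated potassium channel of intermediate conductance, had the largest difference of any member in any comparison, 1.96 ± 0.47 (SE, 3.89-fold, adjusted p = 0.0248). It measured 3.97 and 4.78 in WT PR-A and 6.77 and 5.90 in PR-A K388R cells with vehicle. The lines did not overlap on any array. With R5020 included, the WT PR-A arrays lay between 3.97 and 5.14, the T47D-Y arrays were 5.23 and 5.84, and the PR-A K388R arrays lay between 5.90 and 7.75. Its replicates were the furthest apart among the called genes, with 7.75 and 6.46 in PR-A K388R cells with R5020. The call was lost without PR-A K388R vehicle replicate 1 (1.53, adjusted p = 0.107) or WT PR-A vehicle replicate 1 (1.56, adjusted p = 0.135). Neither line was called against T47D-Y for this gene, at -1.16 for WT PR-A (adjusted p = 0.181) and 0.80 for PR-A K388R cells (adjusted p = 0.378).

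**Figure D3:**
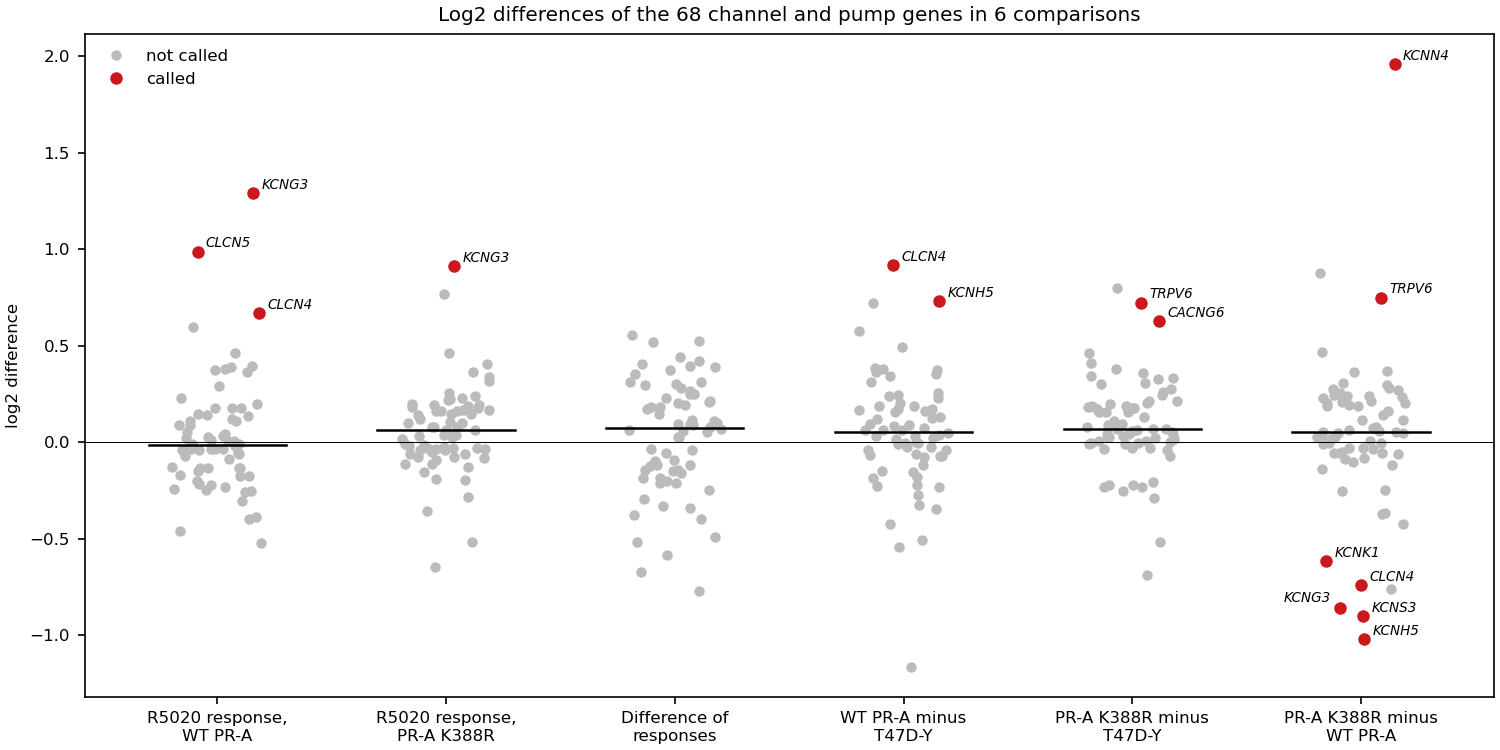
Log2 difference (y axis) of each of the 68 genes in the 6 comparisons on the x axis. Red points are called genes, grey points are the others and black bars are medians over the 68 genes. The medians lay between -0.01 and 0.07, and the comparison of both PR-A lines with vehicle had 7 called genes, the largest number.

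By role, the calls fell in 6 groups of subunits, beside 18% of all 8904 genes called in at least 1 comparison. The groups were too small for these counts to set one apart from another or from that share. Of 13 voltage-gated potassium channel pore subunits, 3 were called in at least 1 comparison (KCNG3, KCNH5 and KCNS3), of 4 tandem-pore channels 1 (KCNK1), of 4 calcium- or sodium-activated potassium channels 1 (KCNN4), of 4 CLCN genes 2 (CLCN4 and CLCN5), of 8 TRP channels 1 (TRPV6), and of 7 accessory calcium channel subunits 1 (CACNG6). No call was made among 5 accessory potassium channel subunits, 3 inward rectifiers, 3 calcium channel pores, 4 sodium channels, 3 calcium pumps, CLIC4 or the 9 antisense and overlapping transcripts. Among the 59 uncalled members, 56 stayed under 1.5-fold in each of the 5 comparisons of 2 groups. Unadjusted intervals reached a median of 0.30 on the log2 scale to either side. A call also needed 1.5-fold (0.58) and the adjusted p, so changes under 0.58 could not be called. The other 3 uncalled members reached 1.5-fold in at least 1 of these comparisons without a call, with a largest difference of 0.88. Changes well above 0.30 could thus go uncalled with these arrays.

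The measured probe sets were part of the array, and the calcium pumps among the members were ATP2A1, ATP2B2 and ATP2B4. Other pump genes of these families were not analysed here, so the values do not describe all calcium pumps of these cells. ATP2B2, the plasma membrane pump known for calcium secretion into milk, measured 4.91 and 4.73 with vehicle and 5.19 and 5.64 with R5020 in WT PR-A cells. Its R5020 arrays were the highest of the 10, and the difference of 0.60 was not called (adjusted p = 0.0694). It was called in the fit without the replicate block and in some fits that left out 1 array, which also had no block. ATP2A1, the SERCA pump of fast skeletal muscle, ranged from 3.98 to 4.66 over the arrays and ATP2B4 from 3.37 to 4.24, both near or under the level where a signal may be background. The calcium channel pores CACNA1A, CACNA1D and CACNA1H ranged together from 4.91 to 6.32, with CACNA1A, a neuronal presynaptic channel, at 5.80 to 6.32. The 6 uncalled accessory calcium channel subunits (CACNA2D2, CACNA2D4, CACNB2, CACNG1, CACNG3 and CACNG5) ranged from 3.35 to 5.62.

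SCN1A, SCN2A, SCN3B and SCN8A, of excitable cells, lay between 2.77 and 4.04 on every array, and KCNJ2, KCNJ8 and KCNJ10 between 2.98 and 4.25, all 7 among the lowest 40% of probe sets. SCN8A ranged from 3.74 to 4.01 and KCNJ8 from 3.60 to 4.25. None of these 7 genes passed the test in any comparison.

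Among potassium channels, KCNS3 ranged from 6.47 to 7.54 and KCNN1, a small-conductance calcium-activated channel, from 6.56 to 7.32. KCNK3, an acid-sensitive tandem-pore channel, had the largest difference among members called in no comparison, 0.88 higher in PR-A K388R than in WT PR-A cells (4.64 and 4.20 against 3.24 and 3.84, adjusted p = 0.0585). It was called without the replicate block, a fit with 5 residual degrees of freedom in place of 4. Some fits that left out 1 array called it too, but these also had no block and are not separate support. The remaining uncalled potassium channel pores were KCNA5, KCNA6, KCND1, KCNG4, KCNH2, KCNH7, KCNH8, KCNQ1, KCNQ3, KCNS2, KCNK10, KCNK15, KCNN3 and KCNT1. The accessory subunits KCNAB2, KCNE4, KCNIP2, KCNIP3 and KCNMB1 ranged from 3.11 to 5.91, of which KCNAB2 covered 5.27 to 5.91.

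CLCN3, another endosomal exchanger, ranged from 9.58 to 10.13 and CLCN6 from 5.64 to 6.45. CLCN3 was lower in PR-A K388R than in WT PR-A cells by 0.36 without being called (adjusted p = 0.0959). The uncalled TRP channels were TRPC1, TRPC6, TRPM1, TRPM2, TRPM3, TRPV3 and TRPV5. TRPM2, a calcium channel opened by oxidative stress, varied little, from 7.81 to 8.03 over the 10 arrays. TRPV5 and TRPV6 are adjacent, closely similar genes, whose probes may share targets; the probe set of TRPV5 ranged from 3.78 to 4.59 and was not called in any comparison. The antisense and overlapping transcripts (CACNA1G-AS1, KCNJ2-AS1, KCNJ5-AS1, KCNK10-AS1, KCNMA1-AS1, KCNQ1-AS1, KCNQ1OT1, SCN1A-AS1 and TRPM2-AS) ranged from 2.43 to 5.66, with TRPM2-AS at 5.11 to 5.66.

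For 20 members more than 1 probe set was measured, so a second reading of the same gene could be set beside the first. For CLIC4 the readings were alike, with R5020 changes of 0.46 and 0.49 in WT PR-A cells (adjusted p = 0.0273 for both). The second CLCN4 probe set changed by 0.59 with R5020 (adjusted p = 0.108) and differed by 0.46 between WT PR-A and T47D-Y and -0.36 between the PR-A lines, the same signs as the first without a call. The second KCNK1 probe set differed by -0.60 between the PR-A lines (adjusted p = 0.0383), while the 2 dimmer ones gave 0.53 and -0.02. All 4 probe sets of CLCN3 were lower in PR-A K388R than in WT PR-A cells, by -0.36 to -0.67, and that with -0.67 was called (limma adjusted p = 0.00742). Those with -0.52 (adjusted p = 0.0234) and -0.50 (adjusted p = 0.0303) passed the adjusted p without reaching 1.5-fold. The second TRPV6 probe set gave 0.31 against T47D-Y and 0.41 against WT PR-A cells, neither called.

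For other genes the readings disagreed. The second KCNG3 probe set, whose mean of 3.50 lay in the lowest 40%, changed with R5020 by 0.14 (WT PR-A) and 0.23 (PR-A K388R) and differed by -0.00 between these lines; none of these was called. The KCNG3 calls thus rested on 1 probe set. The second KCNH5 probe set gave 0.38 between WT PR-A and T47D-Y and -0.22 between the PR-A lines, the same signs but not called. With R5020 in WT PR-A cells the KCNH5 readings differed in sign, at -0.31 for the first and 0.28 for the second, neither called. KCNIP3, a calcium-binding potassium channel accessory protein that also represses transcription, was not called by its brighter probe set (-0.17 with R5020 in WT PR-A cells). Its dimmer one, with a mean of 3.85, fell by 1.24 with R5020 in WT PR-A cells (adjusted p = 0.00246), was 1.33 above T47D-Y in WT PR-A cells (adjusted p = 0.00159) and 1.24 lower in PR-A K388R than in WT PR-A cells (adjusted p = 0.00258). The dimmer TRPC1 probe set was likewise lower in PR-A K388R cells, by 0.63 (adjusted p = 0.0126), where the brighter one gave -0.25. In all, 4 of the 27 probe sets not used were called in at least 1 comparison.

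**Figure D4:**
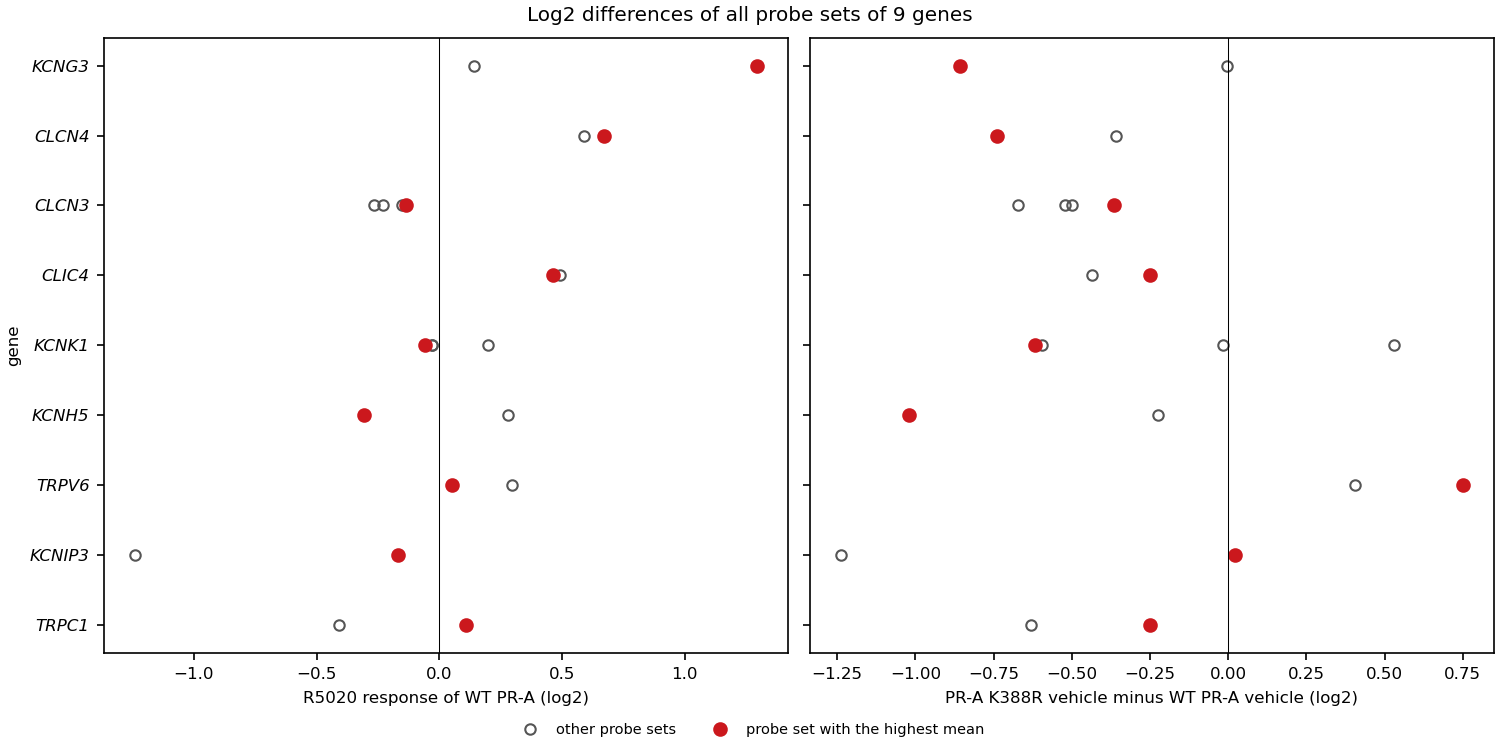
Log2 differences of every probe set of 9 genes (rows), for R5020 minus vehicle in WT PR-A cells (left) and for PR-A K388R minus WT PR-A cells with vehicle (right). Filled red points are the probe sets with the highest mean, open points the others. Both CLIC4 and both CLCN4 readings lie to the right in the left panel and all 4 CLCN3 readings to the left in the right panel, while KCNG3, KCNIP3 and KCNK1 have readings that lie apart.

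Genes that release, store or sense calcium were set beside the channels as a separate list, of which 20 of 42 were measured. This list and the next were chosen with earlier results of these data known, so their counts are not a test. With R5020 in WT PR-A cells ITPR2, an inositol trisphosphate receptor that releases calcium from the endoplasmic reticulum, rose by 0.99 ± 0.13 (SE, adjusted p = 0.00121). RYR1, the ryanodine receptor of skeletal muscle, fell by 0.75 ± 0.19 (SE, adjusted p = 0.0343). With 1 gene called in each direction, the list stood beside 4.4% of all genes called higher and 3.47% lower. No gene of this list was called in the R5020 response of PR-A K388R cells, in the difference of the responses, or between PR-A K388R and T47D-Y cells with vehicle. WT PR-A cells were higher than T47D-Y cells in 3 genes, RYR1 (1.17), CALU (0.98), a calcium-binding protein of the secretory pathway, and PPP3CB (1.02), a catalytic subunit of calcineurin. They were lower in 1, PPP3CA (-1.22), another catalytic subunit of calcineurin. Of all genes 4.48% were called higher and 4.03% lower in this comparison. Against WT PR-A cells, PR-A K388R cells were lower in 4 of the 20 measured genes and higher in 0. The 4 were RYR1 (-1.09), PPP3CB (-1.09), ITPR1 (-0.73) and ORAI2 (-0.65), a channel of store-operated calcium entry. Of all genes 5.63% were called lower and 3.49% higher.

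Of 49 other channels, pumps and regulators of ion transport 23 were measured. SGK1, a kinase that keeps sodium channels at the membrane and that the study chose on these samples, rose with R5020 by 4.31 (WT PR-A) and 4.92 (PR-A K388R). STK39, a kinase upstream of chloride cotransporters, also rose in both, by 0.85 and 0.97. ATP1B1, the beta subunit of the sodium pump, rose with R5020 by 1.14 in WT PR-A cells, where MCOLN3 (-0.94), a calcium channel of lysosomes, and P2RX4 (-0.63), a channel gated by ATP, fell. Thus 3 of the list were called higher and 2 lower in WT PR-A cells, beside 4.4% and 3.47% of all genes, while PR-A K388R cells had 2 higher and 0 lower, beside 1.25% and 0.416%. None of the 23 was called in the difference of the responses.

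Between the lines with vehicle, ATP1B1 was higher than in T47D-Y cells in both PR-A lines, by 0.82 (WT PR-A) and 1.87 (PR-A K388R), and SGK1 was lower in both, by -2.23 and -2.06; the comparisons share the T47D-Y arrays. WT PR-A cells were lower than T47D-Y cells in 4 further genes, FXYD3 (-2.06), a regulator of the sodium pump, SCNN1B (-1.07), a subunit of the epithelial sodium channel, ANO1 (-0.91), a calcium-activated chloride channel, and P2RX4 (-0.69). With ATP1B1 and SGK1 the counts were 1 higher and 5 lower, beside 4.48% and 4.03% of all genes, and for PR-A K388R against T47D-Y cells they were 1 higher and 1 lower, beside 1.35% and 2.48%. Against WT PR-A cells, PR-A K388R cells were higher in 4 of the 23 measured genes and lower in 0. The 4 were SCNN1B (2.02), FXYD3 (1.63), ANO1 (1.53) and ATP1B1 (1.05). Of all genes 3.49% were called higher and 5.63% lower.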

How the data were processed

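Expression was measured on 10 arrays. Per the study's methods, the authors normalized the arrays in Partek Genomics Suite 6.0 and deposited log2 signals per probe set; the normalization and background correction are not given in the sources used here. The table used here holds 16376 probe sets, part of the array, of which 12547 map to 1 symbol. A single limma fit (version 3.58.1, R 4.3.3) covered all arrays, with a mean for each group, two-sided tests and Benjamini-Hochberg adjustment over all probe sets. The replicate number was a block, since in every probe set the replicate differences, added over groups, came to 0 (at most 0.0003), which leaves 4 residual degrees of freedom; the check of pairing is void for the same reason. Members and lists were chosen with earlier results of these data known. All called members are named, with every array's value, as is the brightest member of each subfamily and up to 4 called genes per other list and comparison. Alternatives were no block, unmoderated contrasts, quantile normalization, centring, no dim probe sets, a fold of 2, the most variable probe set of a gene, and leaving out each array. Scripts were tested on simulated data. Upstream sequences are from RefSeq (GRCh38.p14). Figures were drawn in Python 3.11.15.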

Additional observations from a re-analysis of the deposited data

How the results depend on the processing

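The counts of called channel and pump genes depended most on the moderation of the variances. They were 3 and 1 for the responses to R5020 (WT PR-A, then PR-A K388R), 0 for their difference, 2 for each PR-A line against T47D-Y and 7 between the PR-A lines. With unmoderated analysis of variance contrasts they were 0 in all 6 comparisons, where over all genes 225 and 2 were called for the responses, 0 for their difference, 262 and 11 against T47D-Y and 278 between the lines, against 701, 148, 167, 758, 341 and 812 with moderation. At a fold of at least 2 the counts were 1 for the WT PR-A response (KCNG3), 0 for the PR-A K388R response, 0 and 0 against T47D-Y and 2 between the lines (KCNH5 and KCNN4). With no replicate block they were 4, 1, 0, 2, 3 and 8, adding ATP2B2, KCNG3 (PR-A K388R against T47D-Y) and KCNK3, and over all genes the difference of the responses had 364 calls in place of 167. Leaving out single arrays, in fits without the block that let the lone array vary like the other groups, gave 2 to 4 calls for the WT PR-A response, 0 to 1 for the PR-A K388R response, 0 to 0 for the difference, 2 to 4 and 1 to 3 against T47D-Y, and 5 to 8 between the lines. The uncalled difference of the KCNN4 responses, 0.37, ranged from -0.27 to 1.02 when single arrays were left out, and turned to -0.27, -0.06 and -0.03 without PR-A K388R R5020 replicate 1, PR-A K388R vehicle replicate 2 and WT PR-A vehicle replicate 2. Apart from the fold of 2, the calls of KCNG3 in the WT PR-A response, of CLCN4 and TRPV6 between lines and of KCNH5 between the PR-A lines were lost with unmoderated contrasts and in no other alternative. Quantile normalization, centring, leaving out dim probe sets and the most variable probe set of a gene kept every count within 1.5 times. Quantile normalization and centring also called KCNG3 lower in PR-A K388R cells than in T47D-Y cells. The most variable probe set added CLCN3, KCNIP3 and TRPC1 between the PR-A lines. It also added KCNIP3 in the WT PR-A response and in WT PR-A against T47D-Y cells. The causes were not tested. With 2 arrays per group and no probe-level background values, precision and detection of dim genes were limited.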
